A study of Mus musculus with 8 samples.

Results

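The solute carrier (Slc) genes encode the membrane proteins that move sugars, amino acids, metals, nucleotides, lipids and ions across the plasma membrane and the membranes of organelles. The genes described here are those whose symbol starts with Slc followed by a number and that reached 5 FPKM in at least 1 of the 4 RNA libraries (FPKM: fragments mapped to a transcript, divided by its length and by the size of the library). Of 278 such Slc genes listed, 177 met this rule and 101 did not, out of 15359 genes in all. Symbols came from the RefSeq identifiers of the deposited table, and a gene with several transcripts is represented by the one with the highest mean FPKM. The 3 members just inside the limit were Slc24a3, Slc35e2 and Slc45a3, with highest values of 5.17, 5.21 and 5.25 FPKM. Just outside it lay Slc6a7, Slc27a2 and Slc41a2, with highest values of 4.20, 4.62 and 4.79 FPKM. The rule used the expression values themselves, so all comparisons of levels among these genes are descriptions.

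All samples were cultured mouse cells of 1 strain, C57BL/6, and of 4 types. Embryonic stem cells (ESC, passage 14) and induced pluripotent stem cells (iPSC, passage 22) shared a medium with serum replacement, leukemia inhibitory factor and added nonessential amino acids. Neural stem cells (NSC, passage 16), taken from fetal brain at E12.5, grew in serum-free neural medium with insulin, EGF and bFGF, and testicular Sertoli cells (SC, passage 2) in DMEM with fetal bovine serum. Each cell type gave 1 RNA-seq library and 1 m6A-seq library, in which mRNA fragments of about 100 nt were enriched with an antibody against N6-methyladenosine (m6A), a methyl group set on adenosines within messenger RNA. The cell types therefore also differed in medium and passage, which cannot be told apart from cell identity, and no difference below has a replicate check.

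Slc proteins are grouped into numbered families by sequence, and a family usually shares a type of substrate. Uniporters such as the glucose transporters let a solute follow its gradient, symporters draw on sodium or protons, and exchangers swap one solute for another. The largest family, Slc25, sits mainly in the inner mitochondrial membrane, while Slc35 proteins carry nucleotide sugars into the Golgi and the endoplasmic reticulum (ER). Pluripotent cells are known for a high rate of glucose use and for their demand for certain amino acids, Sertoli cells for feeding germ cells with lactate and metals.

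The 177 members came from 47 families, the most numerous being Slc25 with 34 members, Slc35 with 20 and Slc39 with 10. By family number, 174 of them fell into 8 roles: mitochondrial carriers (34), inorganic ion transporters (25), metal and heme transporters (24), ER and Golgi transporters (24), amino acid transporters (23), organic ion and fatty acid transporters (23), vitamin, choline and nucleoside transporters (13) and sugar transporters (8). Some single members differ in substrate from their family, as Slc5a6, a vitamin transporter in a sugar family. In 4 cases the symbol encodes no carrier: Slc9a3r1 and Slc9a3r2 are scaffold proteins that bind ion exchangers, Slc7a6os is a gene on the opposite strand of Slc7a6, and Slc4a1ap encodes a binding partner of an anion exchanger. These 4 stay in the role counts of their family number. The files do not state whether counting used the strand, so the values of Slc7a6 and Slc7a6os are uncertain.

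Markers set the libraries apart before any Slc gene was considered. The summed level of 6 pluripotency markers was 5408 FPKM in ESC and 3294 in iPSC but 0.0296 in NSC and 0.523 in SC, and that of 7 Sertoli cell markers was 12220 FPKM in SC and 4.63 to 16.8 elsewhere. Dppa5a alone gave 4078 and 1986 FPKM of the sums in ESC and iPSC, and Clu 11071 FPKM of that in SC. Sox9, Wt1, Inha, Gata4 and Amhr2 lay between 40.1 and 719 FPKM in SC, and Amh at 3.32. The neural label rested on fewer markers: of 6, Sox1 was listed at 0 in NSC, Pax6 stood at 7.46 FPKM, and their sum in NSC (43.3 FPKM) lay below those in the other libraries (87.8 to 123). Those sums came mainly from Sox2 in ESC and iPSC (84.6 and 119 FPKM), also a pluripotency gene, and from Nes in SC (85.9 FPKM). Pax6 reached at most 0.258 FPKM elsewhere, and Prom1 stood at 12.1 FPKM in NSC against at most 0.4504 elsewhere. The other neural markers were not highest in NSC. In that library Sox2 stood at 14.3 FPKM, Nes at 9.10 and Fabp7 at 0.3804, and Fabp7 was highest in SC at 4.73 FPKM. The SC library also held 5 fibroblast and myoid markers at a sum of 4517 FPKM, against 0.904 to 55.4 elsewhere, and 4 Leydig cell markers at 104 against 2.39 to 9.92. Of the Leydig markers, Star and Cyp11a1 made up nearly all of that sum, and Insl3 was higher in ESC (8.58 FPKM) than in SC (0.903). The 3 neuron and glia markers measured summed to 874 FPKM in SC, of which 828 were Tubb3, against 19.2 to 44.6 elsewhere. Of the fibroblast and myoid markers in SC, Acta2 stood at 1795 FPKM, Tagln at 2166 and Col1a1 at 540, but Col1a2 at 15.5 and Pdgfra at 0.568. Whether other cell types or the Sertoli cells themselves gave these transcripts was not tested. Nor was the part of any other cells in the Slc levels of SC. In such bulk RNA fewer cells of a type and less RNA per cell cannot be told apart. Read depth is unknown. The columns were not on one total, with summed FPKM of 580765, 394600, 516215 and 818860 in ESC, iPSC, NSC and SC. Below, 4 values in a row always follow that order of libraries.

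Slc transcripts took the largest share of the summed gene values in SC, at 0.928%, against 0.505% in ESC, 0.764% in iPSC and 0.655% in NSC. The median member stood at 4.62, 4.88, 7.56 and 16.4 FPKM. Over all 10484 genes that meet the same 5 FPKM rule, members included, the medians were 7.15, 7.74, 11.4 and 17.3 FPKM. The same order of libraries thus held for genes in general, and the members lay below the median gene in every library. On the scale of log2(FPKM + 1), used for every difference here, the mean of ESC and iPSC minus the mean of NSC and SC had a median of -1.12 over members and -0.80 over all genes. Scaling the libraries to a common median ratio moved these to -0.52 and -0.20. The members' highest value fell in SC for 114 genes (64.4%, against 54.5% of all genes), in NSC for 32, in iPSC for 16 and in ESC for 15.

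**Figure D1:**
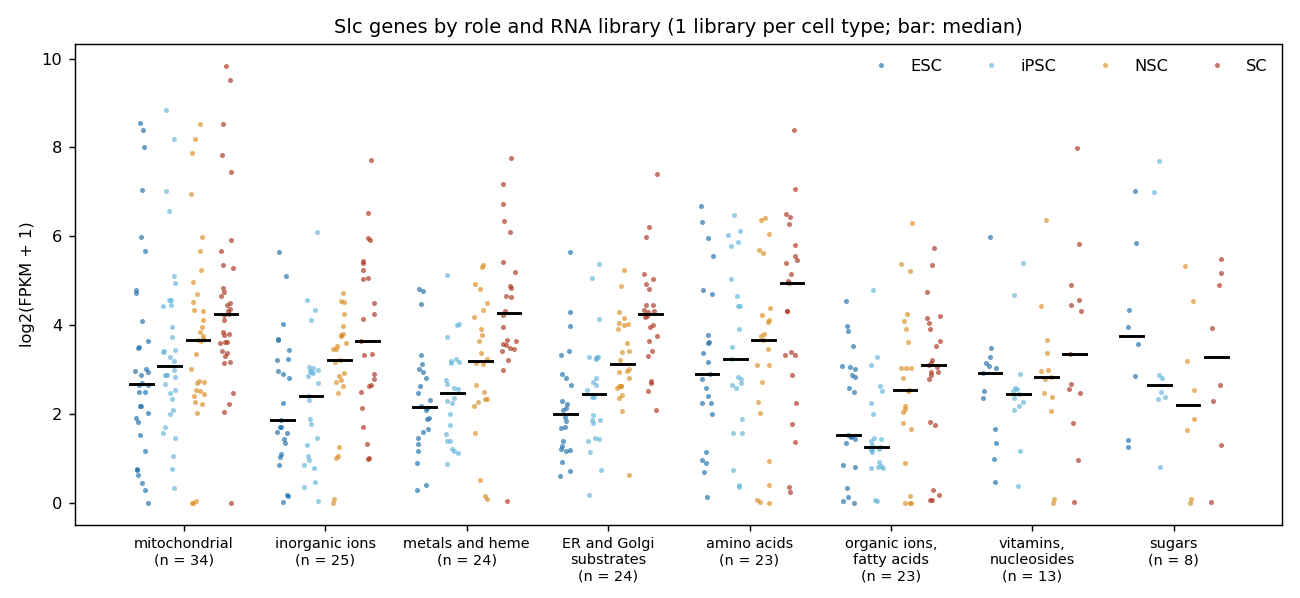
Level of each Slc gene, as log2(FPKM + 1) on the y axis, by role (x axis) in the RNA libraries of ESC, iPSC, NSC and SC, with 1 point per gene and the median of the role as a bar. In the amino acid role the median is highest in SC at 29.6 FPKM, whereas in the sugar role it is highest in ESC at 12.7 FPKM.

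Mitochondrial carriers were the most abundant Slc transcripts, and most of their bulk came from a few housekeeping genes. The Slc25 family made up 49.5, 44.1, 44.4 and 40.6% of the summed Slc values of the 4 libraries. Slc25a3 (NM_133668), which carries phosphate into the matrix, stood at 375, 289, 232 and 913 FPKM. The ADP/ATP exchangers Slc25a5 and Slc25a4, which export ATP to the cytosol, were also among the most abundant. Slc25a5 (NM_007451) stood at 334, 457, 366 and 726 FPKM. Slc25a4, the exchanger known as the main form of heart and muscle, stood at 130.4, 128, 289 and 366 FPKM, with both values in NSC and SC above both in ESC and iPSC. The germ cell exchanger Slc25a31 was high in iPSC alone, at 6.91 FPKM against 0.546 in ESC, and was listed at 0 in both NSC and SC.

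The other named carriers of this family parted in several directions. Slc25a39, which imports glutathione, stood at 256, 93.4, 122 and 227 FPKM, and Slc25a1, which exports citrate for lipid synthesis, at 62.1, 22.7, 62.3 and 174 FPKM, so that both were lowest in iPSC. Slc25a24, which exchanges ATP-magnesium for phosphate under calcium control, stood at 0.219, 1.08, 19.1 and 49.8 FPKM. This was the widest gap between the pairs among carriers of the role. Slc25a45, high in SC alone, stood at 0.355, 0.256, 0.0207 and 37.9 FPKM, and Slc25a36, a pyrimidine nucleotide carrier, at 3.51, 30.1, 37.01 and 8.83 FPKM, with iPSC and NSC high and ESC and SC low. The mitochondrial iron importers, or mitoferrins, differed in range: Slc25a37 stood at 3.05, 4.80, 21.8 and 7.90 FPKM, whereas Slc25a28 kept between 14.6 and 25.6 FPKM in all libraries. Of the 34 mitochondrial carriers, 5 lay at least 2-fold higher in both NSC and SC than in both ESC and iPSC, and 0 lay 2-fold lower. Of all genes at 5 FPKM or more, 15% and 4.77% did so. Once the libraries were scaled to a common median ratio, Slc25a4 and Slc25a23 were no longer among the 5.

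That pair rule, which asks for at least 2-fold between the nearer libraries of the pairs, was met by 45 members. NSC and SC were the higher pair for 37 members, or 20.9% (95% exact interval over genes 15.2 to 27.6%), where 15% of all genes passed. ESC and iPSC were the higher pair for 8 members, or 4.52% (1.97 to 8.71%), where 4.77% of all genes passed. Scaling the libraries to a common median ratio changed this balance. The counts were then 15 (8.47%, against 8.13% of all genes) and 13 (7.34%, against 8.13%), which took the share of calls with ESC and iPSC higher from 17.8% to 46.4%, so that the excess of genes higher in NSC and SC as deposited moved with the level of the whole libraries. The intervals here and below cover counting error over genes only.

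**Figure D2:**
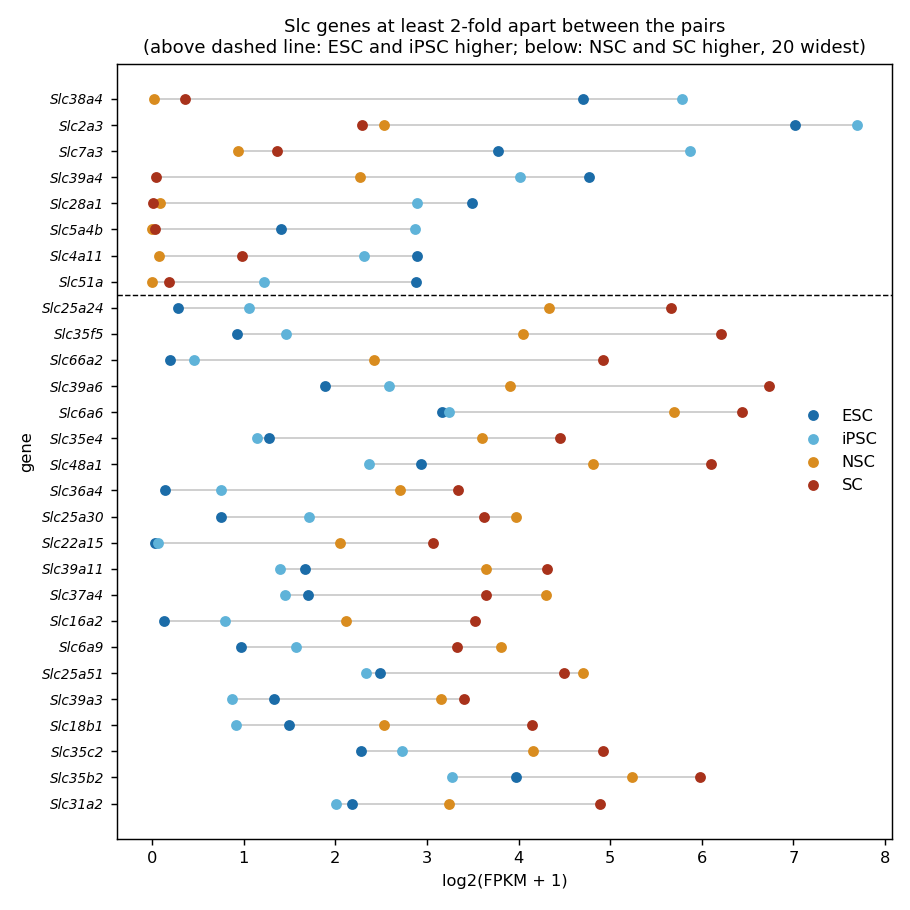
Slc genes at least 2-fold apart between the pairs, with the gene on the y axis and log2(FPKM + 1) on the x axis, 1 point per library joined by a line. The 8 genes above the dashed line have both ESC and iPSC to the right of NSC and SC, and the 20 genes below it, those with the widest mean difference of the 37, the reverse.

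The sugar transporters were the one role whose median difference between the pairs favoured ESC and iPSC. The medians of the role were 12.7, 5.32, 3.73 and 9.71 FPKM, so that iPSC lay below SC. Their median difference between the pairs was 0.39 as deposited and 0.94 after scaling, while all other roles lay between -1.68 and -0.74. Slc2a3 (NM_011401), the high-affinity glucose transporter known from neurons and early embryos, stood at 128, 206, 4.77 and 3.90 FPKM. Its values in ESC and iPSC were the highest of any member outside the Slc25 family in those libraries and lay far above NSC and SC. Slc2a1 (NM_011400), the glucose transporter of most growing cells, stood at 56.8, 127, 22.3 and 34.9 FPKM, with iPSC at least 2-fold above each other library. Slc50a1, a sugar transporter of intracellular membranes, went the other way at 19.1, 6.01, 39.4 and 44.1 FPKM. Slc2a8, an intracellular glucose transporter, stood at 14.5, 4.09, 8.19 and 14.2 FPKM with ESC more than 2-fold above iPSC. Slc5a4b, related to the sodium-coupled glucose transporters, reached 6.31 FPKM in iPSC and 1.65 in ESC, against 0.0191 in SC, and NSC listed it at 0. It no longer met the pair rule with a pseudocount of 5.

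The lactate and pyruvate carriers that serve glycolysis showed no common order. Slc16a1, which carries lactate and pyruvate with protons, stood at 13.6, 26.7, 36.1 and 6.75 FPKM, lowest in SC. Slc16a3, the lactate exporter of glycolytic cells, stood at 14.8, 1.37, 2.14 and 7.53 FPKM, highest in ESC. Summed over the 2 transcripts of Slc16a3, ESC and iPSC stood at 17.4 and 8.92 FPKM and were less than 2-fold apart. Bsg, the partner protein that brings both carriers to the cell surface, stood at 349, 198, 337 and 442 FPKM, highest in SC. The pyruvate carrier subunit gene Mpc2 of the mitochondrion stood at 13.7, 9.79, 32.02 and 65.2 FPKM and met the pair rule with NSC and SC higher. Its partner subunit gene Mpc1 did not, at 39.01, 13.2, 41.4 and 113 FPKM, with NSC about level with ESC.

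Amino acid transporters held some of the widest differences in either direction. By the pair rule, 2 of 23 were higher in both ESC and iPSC and 5 in both NSC and SC, where 4.77% and 15% of all genes passed. Slc38a4 (NM_027052), a sodium-coupled carrier of small neutral amino acids known from placenta and liver, stood at 25.03, 54.01, 0.0111 and 0.285 FPKM. Slc7a3 (NM_007515), a carrier of arginine and lysine, stood at 12.7, 57.7, 0.919 and 1.58 FPKM. Both genes were thus near or under 1 FPKM in NSC and, for Slc38a4, in SC too, and for both iPSC lay at least 2-fold above ESC. Slc7a1, the broadly expressed arginine carrier, ran the other way between the pairs at 6.47, 13.99, 17.7 and 29.6 FPKM.

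Slc6a6 (NM_009320), which takes up taurine, stood at 7.98, 8.42, 51.03 and 85.9 FPKM, so the pairs did not overlap. Slc6a9, which takes up glycine, stood at 0.957, 1.96, 13.01 and 9.03 FPKM, also with NSC and SC above the pluripotent libraries. Slc6a8, which takes up creatine, followed another order, at 60.9, 20.6, 12.4 and 76.7 FPKM. Slc1a6 (NM_009200), a glutamate transporter known from cerebellar Purkinje cells, had the widest range of all members. SC held 335 FPKM of it, ESC 0.612 and iPSC 0.285, and NSC listed it at 0. Slc1a5, which exchanges glutamine and other neutral amino acids, stood at 78.8, 31.6, 65.7 and 3.74 FPKM, with SC far below the others. Slc38a2, a neutral amino acid carrier induced by amino acid shortage, stood at 11.2, 64.3, 48.4 and 89.6 FPKM, lowest in ESC.

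The essential amino acid exchanger was among the steadiest Slc genes. Slc3a2, the heavy chain that carries several exchangers to the surface, stood at 102, 88.5, 81.2 and 132 FPKM, and its light chain Slc7a5, which takes up leucine and other large neutral amino acids, at 45.8, 68.7, 84.6 and 43.1 FPKM. Other light chains varied more. Slc7a6 stood at 2.99, 10.3, 15.8 and 54.8 FPKM, highest in SC, and Slc7a7 at 3.71, 20.4, 0.319 and 2.42 FPKM, highest in iPSC. Across all members, 7 kept within a 2-fold range over the 4 libraries (3.95%, against 11.6% of all genes), with Slc29a2, an equilibrative nucleoside transporter, the narrowest at 4.12, 4.13, 4.59 and 5.34 FPKM. A log2 range of 4 or more was reached by 24 members (13.6%, against 11.8%).

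Metal transporters leaned most to the differentiated libraries. Their median difference between the pairs was -1.68 as deposited and -1.10 after scaling. The pair rule was met by 10 of 24 with NSC and SC higher (15% of all genes) and by 1 with ESC and iPSC higher (4.77% of all genes). Of these 10, the zinc importers of the Slc39 family were Slc39a3, Slc39a6, Slc39a9 and Slc39a11. Slc39a6 (NM_139143) stood at 2.70, 4.998, 14.002 and 105 FPKM. Slc39a1, a surface zinc importer, did not meet the rule at 21.1, 12.4, 39.8 and 143 FPKM. Slc39a7, which releases zinc from the ER and Golgi, stood at 27.1, 34.2, 38.9 and 217 FPKM, nearly flat in the other libraries and high in SC, and did not meet it either. Slc39a4 (NM_028064), the zinc importer of the gut, was the exception at 26.2, 15.2, 3.82 and 0.0278 FPKM, high in both pluripotent libraries and near 0 in SC.

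Iron, heme and copper carriers did not share one order. Slc40a1 (NM_016917), ferroportin, the iron exporter, stood at 0.226, 1.31, 0.430 and 41.8 FPKM, abundant in SC alone. Slc48a1, which moves heme out of lysosomes, stood at 6.66, 4.15, 27.2 and 67.4 FPKM, and the copper importer Slc31a1 at 8.99, 8.45, 29.6 and 23.97 FPKM, both with NSC and SC above ESC and iPSC. Slc11a2, which imports ferrous iron, varied less, at 3.38, 3.72, 3.52 and 10.004 FPKM. The zinc exporter Slc30a1 was also low in all libraries, at 2.73, 4.88, 4.04 and 6.96 FPKM. Slc39a14, an importer of zinc, iron and manganese, stood at 0.316, 7.85, 1.97 and 11.5 FPKM, with ESC lowest. After scaling, Slc39a6, Slc31a1, Slc31a2, Slc30a7, Slc30a9, Slc39a9 and Slc41a1 fell short of the pair rule, while Slc48a1, Slc39a3 and Slc39a11 still met it, the last not in sums over its transcripts.

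Transporters of the ER and Golgi had the next lowest median, -1.43 between the pairs and -0.86 after scaling. By the pair rule, 6 of 24 were higher in both NSC and SC and 0 lower, where 15% and 4.77% of all genes passed. Slc35f5 (NM_028787) had the widest gap, at 0.897, 1.75, 15.6 and 72.9 FPKM. Slc35b2, which carries the sulfate donor PAPS into the Golgi, stood at 14.7, 8.70, 36.6 and 62.3 FPKM, and Slc37a4, the glucose 6-phosphate carrier of the ER, at 2.25, 1.73, 18.7 and 11.5 FPKM. All of these had higher values in both NSC and SC than in either pluripotent library. Slc35b1, a nucleotide carrier of the ER, was the most abundant of the role at 49.4, 40.7, 28.6 and 169 FPKM, highest in SC. The UDP-galactose carrier Slc35a2 and the CMP-sialic acid carrier Slc35a1 did not meet the pair rule, at 3.25, 4.24, 6.83 and 18.8 FPKM for Slc35a2 and 6.50, 8.54, 15.3 and 20.996 FPKM for Slc35a1.

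Among inorganic ion transporters, 3 of 25 were higher in both NSC and SC and 1 in both ESC and iPSC, against 15% and 4.77% of all genes. Slc4a2, a chloride-bicarbonate exchanger, was highest in SC at 6.05, 2.41, 8.31 and 209 FPKM, and so was the potassium-chloride cotransporter Slc12a4 at 9.86, 7.17, 9.98 and 91.4 FPKM. The sodium-potassium-chloride cotransporter Slc12a2 was lowest in ESC, at 1.70, 6.94, 11.1 and 5.87 FPKM. Phosphate importers differed from these: Slc20a1 stood at 49.2, 67.3, 10.5 and 36.6 FPKM, lowest in NSC. The 1 member higher in the pluripotent pair was Slc4a11, at 6.43, 3.97, 0.0538 and 0.971 FPKM, which missed the rule with a pseudocount of 5.

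Of the 23 organic ion and fatty acid transporters, 9 were at least 2-fold higher in SC than in each other library and 3 in NSC. The shares of all genes were 27.1% and 7.16%. By the pair rule, 6 were higher in both NSC and SC and 1, Slc51a, in both ESC and iPSC, against 15% and 4.77% of all genes. Slc15a2 (NM_021301), an importer of short peptides known from kidney and astrocytes, stood at 0.266, 0.787, 40.8 and 0.212 FPKM. Slc27a3 (NM_011988), of the fatty acid transport family, stood at 10.5, 7.60, 77.3 and 2.38 FPKM. NSC was the high library for both. Slc27a6, of the same family, was listed at 0 in ESC and NSC and stood at 0.0242 FPKM in iPSC and 52.1 in SC. Slc27a1, the fatty acid importer of muscle and fat, stood at 7.42, 3.72, 17.9 and 25.9 FPKM, above both pluripotent libraries in NSC and SC, and Slc17a7, the vesicular glutamate transporter of excitatory neurons, at 1.56, 1.71, 11.2 and 0.0433 FPKM. Slc51a, a subunit of a bile acid and steroid exporter, was found in ESC at 6.39 FPKM, with iPSC at 1.32, SC at 0.132 and NSC listed at 0. It too missed the pair rule with a pseudocount of 5.

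Vitamin, choline and nucleoside transporters included 0 of 13 that were higher in both NSC and SC, a rule that 15% of all genes met. The reverse rule, with ESC and iPSC higher, was met by 4.77% of all genes. Slc28a1 (NM_001004184), a sodium-coupled importer of pyrimidine nucleosides, stood at 10.2, 6.42, 0.0648 and 0.0104 FPKM and was the 1 member of the role that was higher in both ESC and iPSC. Slc44a2, a choline transporter-like protein, stood at 7.44, 3.50, 9.31 and 254 FPKM, and Slc46a1, the proton-coupled folate importer, at 6.59, 3.84, 3.18 and 55.9 FPKM, both with SC far above the rest. Slc29a1, an equilibrative nucleoside transporter, stood at 62.6, 41.5, 81.97 and 22.8 FPKM, highest in NSC. The reduced folate carrier Slc19a1 was also highest in NSC, at 0.381, 4.72, 20.6 and 2.50 FPKM.

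ESC and iPSC differed by at least 2-fold in 45 members as well, and the differences ran both ways. Of the 177, 18 were higher in ESC (10.2%, against 12.2% of all genes) and 27 in iPSC (15.3%, against 13.2%). The median difference ESC minus iPSC was 0.02, against 0 over all genes. Among the 27 genes higher in iPSC were 6 amino acid and 7 mitochondrial carriers, including Slc38a2, Slc25a36, Slc7a3 and Slc7a7 described above, while 5 of the 18 genes higher in ESC were organic ion transporters. Slc22a17, a receptor for the iron-binding protein lipocalin, had one of the widest gaps, at 22.3 FPKM in ESC against 2.97 in iPSC (log2 difference 2.55). Slc25a36 had the widest in the other direction, at 3.51 and 30.1 FPKM (-2.79), followed by Slc39a14 (-2.75) and Slc38a2 (-2.42). Many of these genes had low values. With a pseudocount of 5, 8 members were higher in ESC and 8 in iPSC.

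NSC and SC differed in more members, mostly with SC higher. The count was 79 higher in SC (44.6%, against 36.9% of all genes) and 19 in NSC (10.7%, against 13.1%). After scaling it was 53 (29.9%, against 23.5%) and 25 (14.1%, against 20.2%), which took the share with NSC higher from 19.4% to 32.1%, and the median difference NSC minus SC moved from -0.87 to -0.31 over members and from -0.56 to -0.05 over all genes. All 8 roles had members higher in SC, from 14 of 24 metal transporters and 13 of 34 mitochondrial carriers to 2 of 8 sugar transporters. Members higher in NSC were spread over ion (5), organic ion (5), mitochondrial (3), vitamin and nucleoside (3), amino acid (2) and metal (1) transporters. In NSC the widest gaps belonged to Slc15a2 (log2 difference 5.11), Slc27a3 (4.53) and Slc1a5 (3.81), and in SC to Slc1a6, Slc27a6 (both listed at 0 in NSC), the purine carrier gene Slc43a3 (-5.33), Slc25a45 (-5.25) and Slc40a1 (-4.90).

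**Figure D3:**
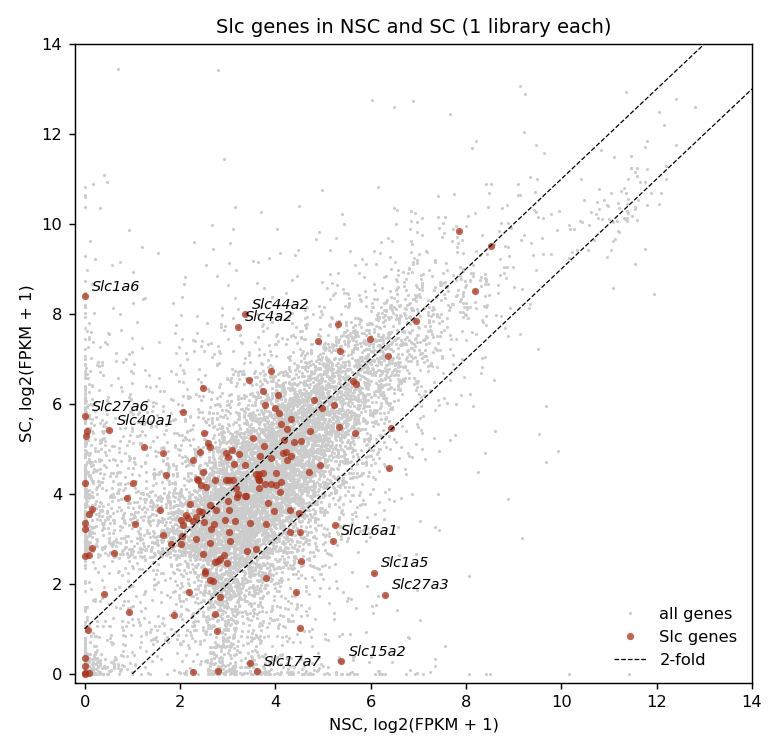
NSC (x axis) against SC (y axis), both as log2(FPKM + 1), with Slc genes as coloured points over all genes at 5 FPKM or more in grey and dashed lines at a 2-fold difference. More Slc points lie above the upper line (79) than below the lower one (19).

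SC was also the library with most members of its own. A highest value at least 2-fold above each of the other 3 libraries was found in SC for 68 members (38.4%, against 27.1% of all genes), in NSC for 9 (5.08%, against 7.16%), in iPSC for 6 (3.39%, against 1.48%) and in ESC for 1 (0.565%, against 2.61%). The 1 in ESC was Slc51a, and the 6 in iPSC were Slc2a1, Slc5a4b, Slc7a3, Slc7a7, Slc25a31 and Slc38a4, of which 3 are carriers of amino acids. After scaling, the SC count was 34 (19.2%, against 14.3%). At the other end, 124 members (70.1%, against 75.5% of all genes) reached 1 FPKM in all 4 libraries. By library, 148 reached it in ESC (83.6%, against 86.3%), 153 in iPSC (86.4%, against 88.6%), 154 in NSC (87.01%, against 89.9%) and 165 in SC (93.2%, against 92.5%). A value of 0 was listed for 1 member in ESC (0.565%, against 0.782% of all genes), 0 in iPSC (against 0.324%), 8 in NSC (4.52%, against 2.78%) and 1 in SC (0.565%, against 1.65%).

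The m6A data were not used to choose these genes. They are yes/no calls by the authors for 5 regions of each transcript, named in the table, in order, TcSS, 5' UTR and CDS and then TsTS and 3' UTR, where TsTS stands between the coding sequence (CDS) and the 3' UTR and neither TcSS nor TsTS is spelled out. The calls are not graded, so how strongly a site was methylated was not analysed here. Among members at 1 FPKM or more in the cell type, 105 of 148 carried a call in at least 1 region in ESC (70.9%, 95% exact interval over genes 62.9 to 78.1%, against 70.8% of all genes). The numbers were 121 of 153 in iPSC (79.1%, 71.8 to 85.2%, against 70.5%), 95 of 154 in NSC (61.7%, 53.5 to 69.4%, against 59.8%) and 120 of 165 in SC (72.7%, 65.3 to 79.4%, against 69.3%). NSC had the lowest share in both sets, and in iPSC the share over all genes lay below the members' interval.

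Where the calls lay differed between cell types, most of all in the CDS. With 1 m6A library per cell type, a difference between libraries, or in how their peaks were called, cannot be told apart from one between cell types. ESC had CDS calls on 25.7% of members (interval 18.9 to 33.5%) and SC on 31.5% (24.5 to 39.2%). The share was 51.6% in iPSC (43.4 to 59.8%) and 47.4% in NSC (39.3 to 55.6%). All genes showed no such split, with 42.1, 46.1, 44.6 and 47.6% in the same order. The members' share was therefore below that of all genes in ESC and SC and close to it in iPSC and NSC. Among members at 5 FPKM or more in the cell type the shares were 28.2, 53.6, 44.8 and 33.8%, against 44.2, 43.7, 43.4 and 48.9% of all genes. Among those with a single transcript they were 22.8, 51.3, 48.7 and 29.9%, against 42.2, 45.5, 44.2 and 46.7%.

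Members with a CDS call in 1 cell type of a pair and not in the other showed the same split gene by gene. Of 140 members at 1 FPKM or more in both ESC and iPSC, 39 had a CDS call in iPSC and not in ESC (27.9%, against 12.4% of all genes), and 2 had one in ESC and not in iPSC (1.43%, against 9.49%). Of 148 in NSC and SC, 39 had one in NSC and not in SC (26.4%, against 13%) and 12 the reverse (8.11%, against 14.7%). These pairs share no library, and 19 genes stood in both lists of 39, or 48.7% of each. Over all genes, 350 stood in both of the same lists, which held 1080 and 1168 genes. Of the 124 members at 1 FPKM or more in all 4, these 19 had CDS calls in iPSC and NSC alone (15.3%, against 4.42% of all genes). None of the 124 had CDS calls in ESC and SC alone, which allows a share of up to 2.42% (3 counts of 124), against 4.18% of all genes.

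The split had the same direction in most roles but not the same size. Between ESC and iPSC, iPSC alone was called in 7 of 19 amino acid and 8 of 19 ER and Golgi transporters. It was called in 5 of 20 metal, 5 of 16 organic ion and 3 of 7 sugar transporters. For vitamin and nucleoside transporters the count was 4 of 11. Mitochondrial carriers (4 of 28, 14.3%) and ion transporters (3 of 18, 16.7%) lay near the 12.4% of all genes. ESC alone was called in 1 ER and Golgi and 1 mitochondrial carrier, Slc35e4 and Slc25a5, and in 9.49% of all genes. Between NSC and SC, NSC alone was called in 7 of 17 amino acid transporters and SC alone in 0. Ion transporters were the exception with 3 and 4 of 23. ER and Golgi transporters had 8 and 2 of 23, mitochondrial carriers 7 and 2 of 31. Metal transporters had 4 and 2 of 20, organic ion 3 and 1 of 15, sugar 3 and 0 of 6. Vitamin and nucleoside transporters had 3 and 1 of 10. Over all genes the shares were 13 and 14.7%. The most abundant of the 19 genes, named after their values were seen, were Slc7a5 and Slc2a1. Slc7a5 was called in TsTS and 3' UTR in all 4 cell types, in the CDS in iPSC and NSC only, and in TcSS in ESC. Slc2a1 had the same TsTS, 3' UTR and CDS calls, with TcSS called in all but SC.

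Calls in the 3' UTR were more common among members than among all genes in every cell type. The shares were 40.5% (interval 32.6 to 48.9%), 46.4% (38.3 to 54.6%), 38.3% (30.6 to 46.5%) and 32.7% (25.6 to 40.5%), against 26.7, 33.4, 27.8 and 23.4% of all genes. Members also had longer 3' UTRs, with a median of 1231 nt against 929 nt over all genes in GENCODE M21 transcripts. Among genes with a 3' UTR of 1000 nt or more, members were called there in 47.6, 56.8, 50 and 43.75%, and all genes in 37.5, 50.4, 41.3 and 34.3%. Within long 3' UTRs the gap was smaller than over all members in ESC, iPSC and NSC and about the same in SC. TsTS calls lay nearer to the background, at 50, 52.3, 42.9 and 49.1%, against 50, 48.8, 38.1 and 45.6%. The 5' UTR was called in 5.41, 10.5, 9.74 and 7.88% of members, against 3.37, 4.64, 5 and 5.07%, and TcSS in 10.1, 11.1, 11.7 and 13.9%, against 18.4, 12.7, 13.1 and 13.6%.

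**Figure D4:**
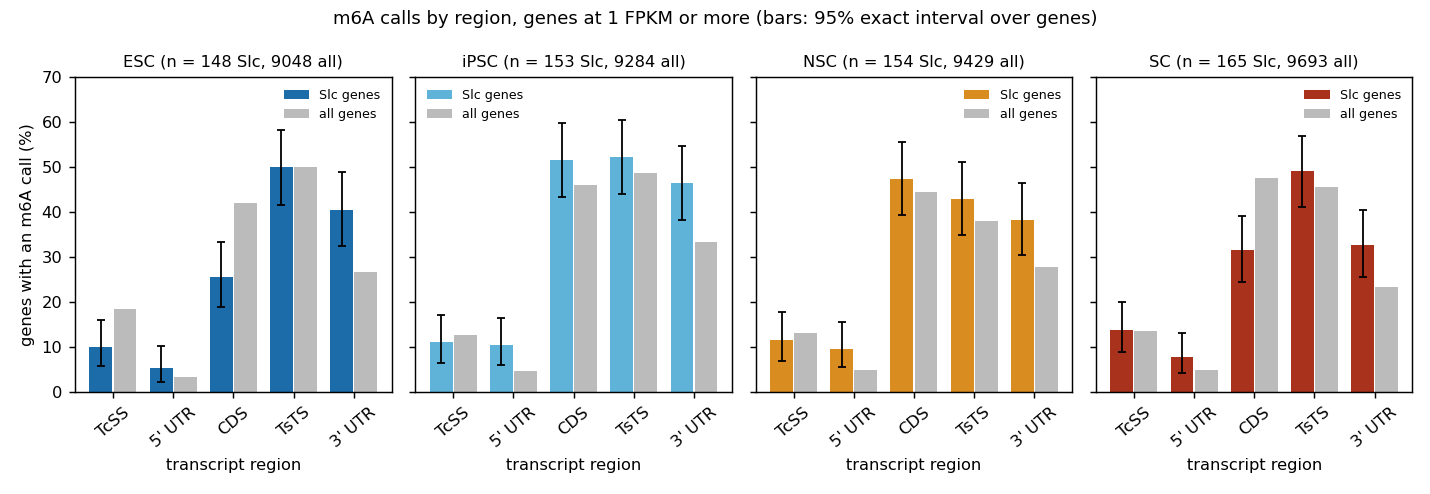
Share of genes at 1 FPKM or more with an m6A call (y axis, percent) in each transcript region (x axis), 1 panel per cell type, Slc genes coloured and all genes grey, with 95% exact intervals over genes. The coloured CDS bar is below the grey one in ESC and SC (25.7 and 31.5%) and not in iPSC and NSC (51.6 and 47.4%).

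Across cell types, 57 of the 124 members at 1 FPKM or more in all 4 were called in every cell type (45.97%, against 46.1% of all genes) and 11 in none (8.87%, against 14.2%). Calls in ESC, iPSC and SC but not NSC made the next most common pattern, with 18 members (14.5%, against 10%), among them Slc38a2, Slc29a1, Slc1a5, Slc6a6 and Slc16a1. Calls in exactly 1 cell type were rare, with 8 members (6.45%, against 9.8%). One of these was the abundant phosphate carrier Slc25a3, called in SC only. Of the 57, 51 shared at least 1 region in all 4 cell types, most often TsTS (29), 3' UTR (26) or CDS (21), but only 5 had the same set of regions throughout: Slc3a2, Slc25a36, Slc38a10, Slc35e1 and Slc66a1.

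Over all genes, 46.1% were called in every cell type and 14.2% in none, and the roles are too small for more than counts beside these. Of 14 genes of the amino acid role at 1 FPKM or more in all 4, 10 were called in every cell type and 0 in none. The 10 include Slc7a6os, which encodes no carrier. Of 28 mitochondrial carriers, 11 were called in every cell type and 5 in none, among the latter the abundant Slc25a39 and the glutamate carrier Slc25a22. All 20 genes of the amino acid role at 1 FPKM or more in iPSC, Slc7a6os again included, carried a call. The share was 19 of 32 for mitochondrial carriers (59.4%) and 70.5% for all genes. The median 3' UTR was 1402 nt for amino acid transporters and 1020 nt for mitochondrial carriers. Of the pluripotent-high genes, Slc2a3, Slc39a4, Slc7a3 and Slc38a4 are given as examples. Slc2a3 was called in TsTS in all 4 cell types although it stood below 5 FPKM in NSC and SC. Slc39a4 was called in ESC and iPSC and in neither NSC nor SC. Slc7a3 and Slc38a4 were called in iPSC and in no other cell type, though both were above 5 FPKM in ESC. In NSC both stood under 1 FPKM, below the minimum used for the shares.

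**Figure D5:**
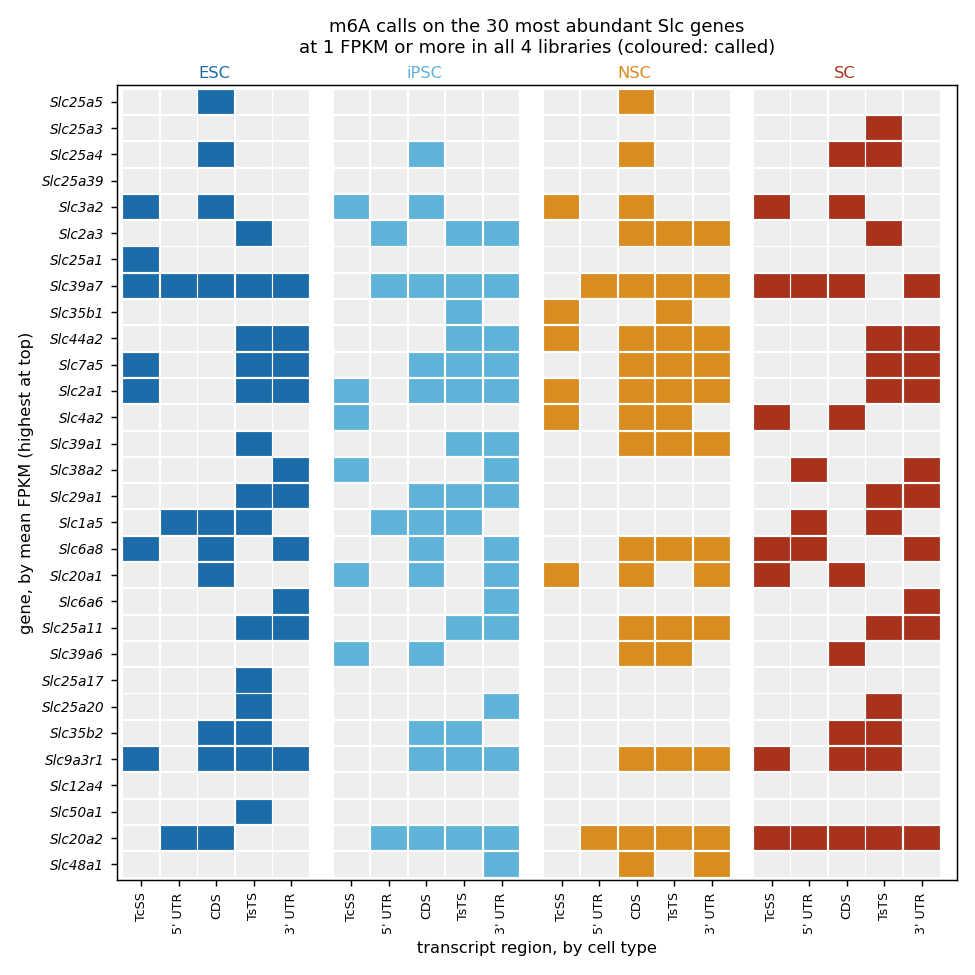
m6A calls on the 30 most abundant Slc genes at 1 FPKM or more in all 4 libraries, with genes ordered by mean FPKM on the y axis and the 5 transcript regions of each cell type on the x axis, where a coloured cell is a call. Slc3a2 repeats its TcSS and CDS calls in all 4 blocks, Slc7a5 and Slc2a1 gain a CDS call in iPSC and NSC, and Slc25a39 and Slc12a4 have no coloured cell.

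The stop codon region was read for members with TsTS calls in every cell type, with none, or with no call in any region. From its place between CDS and 3' UTR, TsTS was taken to lie at the stop codon, which the labels do not state. The letters GGACT, the commonest form of the motif at which m6A is found in mammals, were searched on the transcript strand only, in a window of 200 nt on each side of the stop codon end in GENCODE M21 transcripts (GRCm38), matched to RefSeq identifiers for 177 of 177 members. Of 169 members with a full window, 52.1% held GGACT, against 41.2% of all genes. Among the 29 members called in TsTS in every cell type 65.5% held it, and among 29 called there in none 48.3%. Over all genes these shares were 57.4% and 27.8%. The sites nearest to the stop codon follow for members called in TsTS in all 4 cell types at 5 FPKM or more, with GGACT in capitals, from 5′ to 3′ on the transcript strand. The scaffold gene Slc9a3r1, which encodes no carrier, met the same rule with GGACT in the CDS, 37 nt before the stop codon end, and its sequence is left out. Chromosome positions are those of GRCm38, whereas the deposited values were made on mm9.
Slc2a1: ctctgggggcGGACTcccaagtgtg
Slc25a11: catggtcccaGGACTagtgtgccag
Slc38a10: atgttcccagGGACTggtatctaag
Slc38a7: gatgacatgtGGACTcctttcccca
Slc37a3: aggagaggacGGACTgggaagctta
Slc15a4: catgttgtctGGACTggcttctccc
The Slc2a1 site lies at chr4:119136421-119136445 (plus strand), in the last stretch of the CDS in exon 10, 13 nt before the stop codon end. The others lie in the 3' UTR, on the minus strand: Slc25a11 at chr11:70644736-70644760, 18 nt after the stop codon end, Slc38a10 at chr11:120104887-120104911, 98 nt after it, and Slc38a7 at chr8:95837459-95837483, also 98 nt after it. Those of Slc37a3 (chr6:39337156-39337180) and Slc15a4 (chr5:127596477-127596501) lie 24 and 135 nt after it.

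Members with no call in any cell type did not lack these letters. Of the 11, 8 held GGACT in the window (72.7%), against 46.4% of members called in all 4 cell types. Over all genes the order was the reverse, at 29.5% of genes called in none and 46.7% of those called in all 4. The 11 members are few, and whether their order parts from that of all genes was not tested. For comparison the nearest sites of the cotransporter gene Slc12a4 and the CMP-sialic acid carrier gene Slc35a1 are shown in the same way.
Slc12a4: gtggatttagGGACTgtcccctccc
Slc35a1: attcctataaGGACTtaaactgttg
Both lie in the 3' UTR on the minus strand, Slc12a4 at chr8:105943879-105943903, 191 nt after the stop codon end, and Slc35a1 at chr4:34664066-34664090, 28 nt after it. Conversely, Slc7a5, Slc7a1 and Slc35a4 were called in TsTS in every cell type and held no GGACT in the window. Uncalled members were shorter: the median 3' UTR was 849 nt for the 11 called in none and 1648 nt for the 57 called in all 4, and the median transcript 2546 and 3430 nt. Over all genes these medians were 520 and 1116.5 nt for the 3' UTR, so the same order held there.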

How the data were processed

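Expression values are FPKM per RefSeq transcript, made by the authors and deposited as 1 table of 19776 transcripts with a value for each RNA library, per the file headers. Per the submitters' processing notes, Cufflinks 2.0.2, TopHat2 2.0.4, CASAVA and the build mm9 were used, with no roles stated. m6A values are the authors' yes/no calls for 5 regions of a transcript, per the file headers; the peak caller, threshold and control were not given in the sources used here. Symbols came from RefSeq (19446 transcripts) and GENCODE M21 (104 more), and 226 transcripts had no match. Differences were taken on log2(FPKM + 1), which understates changes of low genes, with a 2-fold rule and no test, since each cell type had 1 library per assay. A value of 0 can be a failed estimate, so such genes are said to be listed at 0 and get no fold. All genes meeting the same 5 FPKM rule served as background. Intervals are Clopper-Pearson, and the limit for a count of 0 is 3 counts. Counting was tested on simulated data. Alternatives covered the pseudocount, library scaling, genes listed at 0, summed transcripts, the FPKM minimum, left-out libraries and, for calls, the minimum, the transcripts used and the 3' UTR length. Named genes were taken as the most abundant members, those meeting the pair rule (the 15 widest where over 30), the widest of each other comparison, the extremes of each role, steady or absent m6A calls, members at the threshold and well-known transporters; some genes that met these rules are not reported here. The members, roles, lists and rules were chosen with earlier results of these data known. Work was done in Python 3.11.15 with pandas 2.3.3, numpy 2.4.6, scipy 1.17.1 and matplotlib 3.10.9.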

Additional observations from a re-analysis of the deposited data

How the results depend on the processing

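Of 192 alternative values for 36 results, 160 kept close to the reported one and 32 moved. For counts close was a wide band. It held the move from 79 to 53 members higher in SC than in NSC after scaling. It also held that from 27 to 40 higher in iPSC than in ESC with a pseudocount of 0.1. A share was close if it stayed inside the 95% interval of the reported one. The 8 members higher in ESC and iPSC were 5 with a pseudocount of 5, 13 after scaling, 15 at a minimum of 1 FPKM, 5 at 10 FPKM, and 13, 15 and 16 without ESC, NSC and SC. The 37 members higher in NSC and SC were 14 with a pseudocount of 5, 15 after scaling, 65 without iPSC and 104 without NSC; fewer libraries then had to meet the rule. With a pseudocount of 5, 8 members were higher in ESC and 8 in iPSC. The 1 member highest in ESC alone became 2 with a pseudocount of 0.1, 0 with 5, 5 after scaling, 0 without genes listed at 0, 6 at 1 FPKM and 0 at 10 FPKM. For NSC alone the count was 15 at 1 FPKM, and for SC alone 34 after scaling. In sums over transcripts Slc7a7 turned from higher in SC to about level (-0.0316). At 5 FPKM or more, ESC had m6A calls on 81.2% of members, TcSS calls on 17.6% (24.8% of all genes) and TsTS calls on 60% (52.1% of all genes). At that minimum, 22 of 48 members were called in all 4 cell types and 3 in none. Among single-transcript genes, 7 were called in none. Except for calls by region, shares of all genes under the alternative settings are not reported in this paragraph. The values without them show how a result moved, not an excess over other genes. Alternatives on regions were chosen after seeing the data. With a 3' UTR of 1000 nt or more, TsTS was called in 61.4% in iPSC and 52.2% in NSC, against 60.3 and 47.1% of all genes. The 3' UTR was then called in 56.8, 50 and 43.75% in iPSC, NSC and SC, against 50.4, 41.3 and 34.3%. Except for the construction named for left-out libraries, the cause was not tested. No paired analysis was possible because each cell type had 1 library per assay. Read depth is unknown and limits what an absent call or low value shows.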

Other observations

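Other membrane transport genes were set beside the Slc genes. Most ABC transporters pump lipids, drugs and metabolites with ATP. The 21 genes with an ABC symbol at 5 FPKM or more included Abce1, Abcf1, Abcf2 and Abcf3, which encode no membrane pump. Of the 21, 4 were at least 2-fold higher in both NSC and SC (Abca1, Abca2, Abca3 and Abcc1), where 15% of all genes passed. In both ESC and iPSC 0 were higher, where 4.77% of all genes passed. The cholesterol exporter Abca1 stood, in the usual order of libraries, at 0.177, 0.917, 5.17 and 20.99 FPKM, and the drug and glutathione conjugate exporter Abcc1 at 4.32, 5.61, 21.2 and 22.2 FPKM. Of 12 genes of P-type ion pumps and their subunits (Atp1b1, Atp1b2 and Atp1b3), 1 was higher in both NSC and SC, and 0 in both ESC and iPSC. The water and glycerol channel Aqp3 was higher in both pluripotent libraries, at 76.3, 50.9, 4.39 and 0.159 FPKM, whereas Aqp5 was high in SC alone, at 0.662, 0.456, 0.322 and 37.1 FPKM. The metal-binding protein gene Mt2 was also higher in both pluripotent libraries, at 1655, 1679.5, 297 and 279 FPKM, but its relative Mt1 was not, at 1335, 1029, 541 and 1593 FPKM.

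The CDS split seen in the Slc genes had the same direction in the ABC genes, Abce1, Abcf1, Abcf2 and Abcf3 again included. Of 16 at 1 FPKM or more in ESC and iPSC, 5 had a CDS call in iPSC and not in ESC and 0 the reverse, and of 20 in NSC and SC, 6 had one in NSC and not in SC and 1 the reverse. Over all genes the shares were 12.4 and 9.49% between ESC and iPSC, and 13 and 14.7% between NSC and SC. The P-type pump and subunit genes had 3 and 0 of 10, and 3 and 2 of 11. The 13 amino acid response genes showed no such split, with 2 and 2 in either pair. These lists are small, and whether they part from other genes was not tested.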
